A study of Mus musculus with 2 samples.

Results

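The cells described here are islet cells of Isl1 conditional knockout mice that carried a very high level of Ttr, the transthyretin gene, and little transcript of Gcg, the glucagon gene. Cells were taken from the Isl1CKO library when Ttr made up at least 5% of their unique molecular identifiers (UMIs, counts of single mRNA molecules), Gcg under 5% and Ins1 plus Ins2, the insulin genes, under 1%. The 7 proliferation genes Mki67, Top2a, Cdk1, Cenpf, Hmmr, Ube2c and Rrm2 had to sum to under 10 UMIs. A cell also needed at least 500 genes and at most 15% mitochondrial UMIs. The rule took 1278 of 2987 Isl1CKO cells, 42.8% (exact binomial 95% interval 41.0 to 44.6), among 5483 cells in all. Of 2496 control cells, 8 passed the same rule, 0.321% (0.138 to 0.631). The cells were thus chosen by their levels of Ttr, Gcg, Ins1, Ins2 and the 7 proliferation genes, and these levels are given only as a description.

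The Isl1CKO library came from mice of genotype Neurod1 Cre/+; Isl1f/f, which carry a Neurod1-driven Cre recombinase and 2 floxed Isl1 alleles. The control library came from Neurod1 Cre/+; Isl1f/+ mice, so the control cells carried the Cre and 1 floxed Isl1 allele too. The genotype labels do not name the tdTomato reporter allele. Both were tdTomato-sorted islet cells of postnatal day 9 mice, profiled with the 10x Chromium 3′ assay. The sample titles give 6 for each library, read here as the number of animals pooled, and each genotype is 1 library. Genotype, library and sorting run therefore cannot be told apart, no difference between genotypes has a replicate check, and every interval below covers counting error only. Neurod1 is active throughout the endocrine lineage, so recombination was not limited to alpha cells.

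Alpha cells are the islet cells that make glucagon, which raises blood glucose. In mice PAX6, a paired-box factor, drives the glucagon gene, and ISL1, a LIM-homeodomain factor, acts in all islet endocrine types. Transthyretin, a carrier of thyroid hormone and retinol, is strongly expressed in alpha cells. Alpha cells also take up amino acids, which stimulate glucagon release, and SLC38A5, a glutamine transporter, is induced in mouse alpha cells when glucagon signalling is blocked.

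The closest control cells were 561 with Gcg at 5% of UMIs or more and insulin, Sst and Ppy each under 5%, here called control Gcg-high cells. The Isl1CKO cells had a median of 28457.5 UMIs and 5077 genes, against 20106 UMIs and 4154 genes in the control Gcg-high cells, and the sums were 37236274 and 11685885 UMIs. The mitochondrial share was 1.60% against 1.38% (medians). Of the Isl1CKO cells 709 held Y-linked UMIs without Xist and 502 Xist without Y-linked UMIs, against 388 and 121 of the control cells. These male and female cells come from different animals of each pool, so their levels are given beside the main results. The libraries shared 4 barcodes, of which 1 was in the chosen cells.

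Ttr had a median of 10.4% of UMIs in the Isl1CKO cells, against 2.10% in control Gcg-high cells. Gcg had a median of 0.0156% in the Isl1CKO cells, against 28.1% in control Gcg-high cells. No Gcg UMI was counted in 332 of the Isl1CKO cells (26.0%), and the highest cell reached 4.23%. Across the whole Isl1CKO library only 2 cells held Gcg at 5% or more, against 660 control cells. After every cell was thinned to 5000 UMIs, a Gcg UMI was left in 53.8% of the Isl1CKO cells, in 100% of control Gcg-high cells and in 4.7% of the insulin-high Isl1CKO cells (median 32493 UMIs before thinning). In control insulin-high cells (median 48229 UMIs before thinning) it was 77.8%. In the cycling Ttr-high Isl1CKO cells it was 50% (41.4 to 58.6), which overlaps the interval of the chosen cells (51.0 to 56.5). Summed over all cells Gcg stood at 1853 CPM (UMIs of a gene after scaling the UMIs of a cell set to 1000000) in the Isl1CKO cells, against 284898 CPM in control Gcg-high cells.

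**Figure D1:**
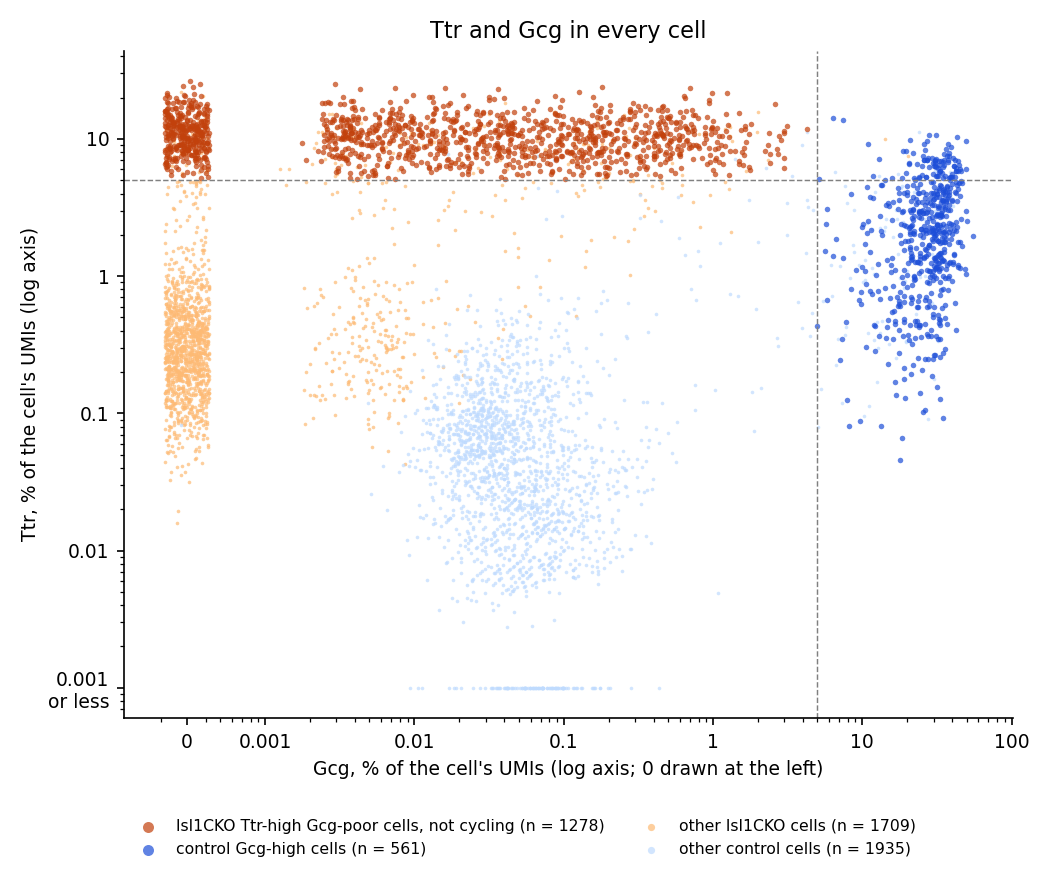
Each point is 1 cell, with Gcg (horizontal) and Ttr (vertical) as percent of its UMIs, both on log axes, and dashed lines at 5%. The 1278 chosen Isl1CKO cells lie above 5% Ttr and reach 4.23% Gcg, while the 561 control Gcg-high cells lie at 5% Gcg or more with a median Ttr of 2.10%.

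Cells near each threshold were counted. Just inside the Ttr threshold, 62 cells with Ttr of 5 to 6% had Slc38a5 at 11035 CPM. Just outside, 38 cells with Ttr of 4 to 5% and otherwise the same levels had 8893 CPM. The 93 cells with Ttr of 1 to 4% had 3278 CPM and the 653 cells with Ttr under 1% had 164 CPM. The Gcg threshold left out 2 cells, with 3 cells at 3 to 5% just inside. The insulin threshold left out 12 cells at 1 to 5%, with 4 cells at 0.5 to 1% inside. The proliferation threshold left out 22 cells with 10 to 19 UMIs, with 34 cells of 5 to 9 UMIs inside.

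Of the 7 markers given for these cells, Ttr belongs to the rule. The markers were chosen with earlier results of these data known, so their levels describe the cells and cannot check the label. The alpha-cell transcription factor genes Irx1 and Irx2 were present at slightly higher levels than in control Gcg-high cells. The amino acid transporter gene Slc38a5, the membrane protein genes Ttyh1 and Cd24a and the vitamin D carrier gene Gc were at least 2-fold higher. Here and below a gene was compared when the set with the higher CPM held at least 50 UMIs, and its log2 ratio is given relative to the median gene. In this comparison 11492 genes were compared, of which 8.8% lay 2-fold or more above the control level and 7.25% lay 2-fold or more under it. With no replicates these are sizes and not tests.

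Slc38a5 (GRCm38 chrX:8271133-8280179, plus strand) stood at 12428 CPM in the Isl1CKO cells, against 949 CPM in control Gcg-high cells. The relative log2 ratio was 3.55 (95% interval 3.52 to 3.58). The male and female Isl1CKO cells had 11599 and 13530 CPM, and the male and female control cells 919 and 1052 CPM. Per cell the median was 11713 CPM with an 80% range of 3520 to 20041 CPM in Isl1CKO cells, against a median of 297 CPM and a range of 50.6 to 2198 CPM in control cells. Thinned to 5000 UMIs, 99.5% of the Isl1CKO cells and 72.5% of control Gcg-high cells held a UMI of it. In collagen-positive Isl1CKO cells, which are not endocrine, 23.8% did.

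Ttyh1, a tweety-family anion channel gene, had 468 CPM in the Isl1CKO cells, against 12.0 CPM in control Gcg-high cells, a relative log2 ratio of 5.13. Cd24a, a cell surface glycoprotein gene that also marks immature endocrine cells, had 469 CPM in the Isl1CKO cells, against 10.3 CPM in control cells (5.35, interval 5.09 to 5.62). Both were near 0 in most control alpha cells, with a median per cell of 0 CPM for each in control cells, against 386 CPM for Ttyh1 and 385 CPM for Cd24a in Isl1CKO cells. Cd24a was not particular to these cells, since control Sst-high cells had 750 CPM. Gc had 416 CPM in Isl1CKO cells, against 128 CPM in control cells (1.54), and its ratio fell to 0.20 when only control Gcg-high cells with Ttr of at least 5% were used.

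Irx1, an Iroquois homeobox gene, had 261 CPM in the Isl1CKO cells, against 157 CPM in control Gcg-high cells (0.57). Irx2 had 203 CPM in the Isl1CKO cells, against 141 CPM in control cells (0.36). In insulin-high Isl1CKO cells Irx1 and Irx2 had 11.9 and 10.2 CPM, and in remaining Isl1CKO cells 61.7 and 64.3 CPM. All 6 markers outside the rule were present in the chosen cells, which is a description only.

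The factor genes of the alpha list split the other way. Of 11 alpha transcription factor genes compared, 0 were at least 2-fold higher and 5 were lower, with a median of −0.39, which was below 0 under each of 19 other settings. Pou3f4 (BRN4), a factor of early alpha cells, had 3.73 CPM in the Isl1CKO cells, against 58.4 CPM in control Gcg-high cells (−4.13). Peg10, an imprinted gene of retrotransposon origin, had 47.0 CPM against 191 CPM in control cells (−2.18). Etv1, an ETS-family factor gene, stayed close to level, at 357 CPM in Isl1CKO cells and 352 CPM in control cells (−0.14).

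Isl1 transcript itself (chr13:116298281-116309689, minus strand) was 508 CPM in the Isl1CKO cells, against 469 CPM in control Gcg-high cells (−0.05). The counts are 3′ tags and the sources used here do not state which exon is floxed, so this level checks nothing about the deletion. The other factors shared by endocrine cells also stayed near the median gene. Of 18 pan-endocrine factor genes, 1 was at least 2-fold higher and 2 lower, with Pax6 at −0.06, Nkx2-2 at 0.03 and Neurod1 at −0.52. Lmo4, a LIM-only gene whose product binds LIM-domain partners, was the higher one at 1.29. Meis2, a TALE homeobox gene, was at −1.40, and St18, a zinc-finger factor gene, at −1.08, or −0.92 without centring on the median gene.

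**Figure D2:**
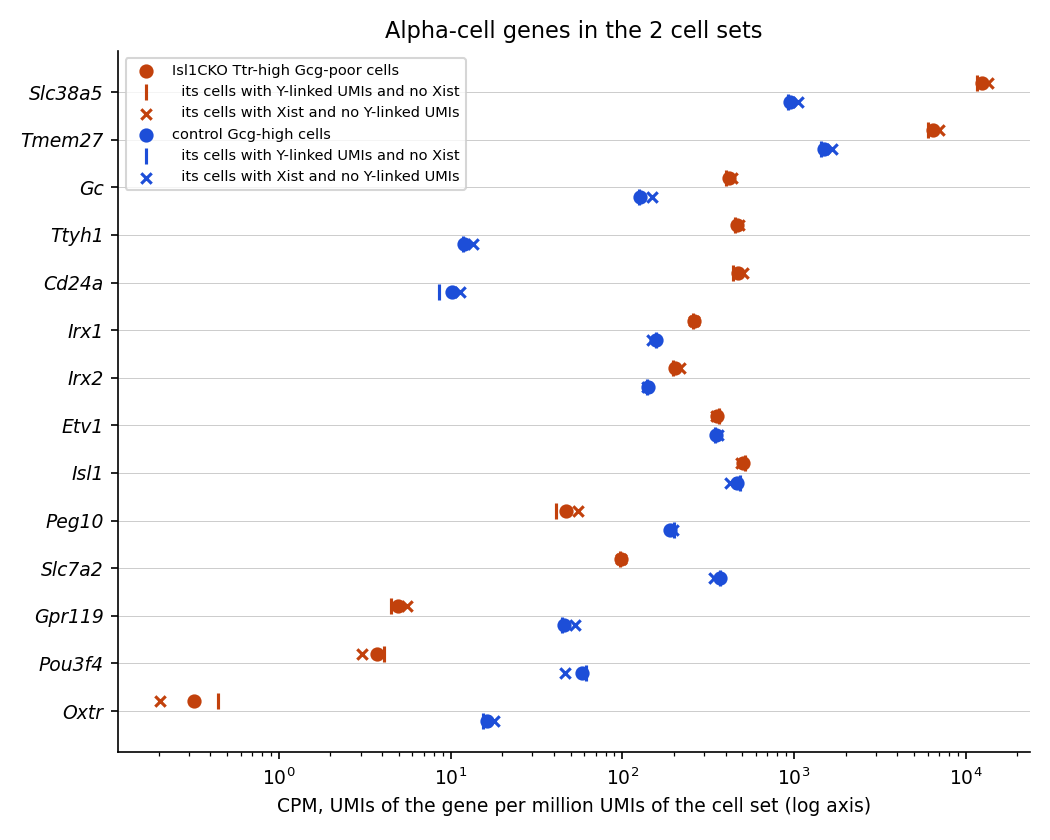
Levels of 14 genes, which are alpha-cell genes, Isl1 and markers given for the chosen cells, in CPM on a log axis. Isl1CKO Ttr-high Gcg-poor cells are drawn above control Gcg-high cells for each gene. Large points are all cells of a set, ticks its male and crosses its female cells. Slc38a5, Ttyh1 and Cd24a lie to the right in the Isl1CKO cells, and Oxtr and Pou3f4 to the left, in male and female cells alike.

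The promoters of Gcg, the alpha gene that chose the cells by its low level, and of Slc38a5, the most abundant of the higher markers, are shown as RefSeq gives them on GRCm38.p6, 250 bases before to 50 after the start. Capitals mark TAAT and its reverse complement ATTA, the core that homeodomain proteins such as ISL1 recognise. The Gcg window (chr2:62483604-62483903, minus strand) holds 1 TAAT and 1 ATTA, and the Slc38a5 window (chrX:8271131-8271430, plus strand) holds 0 of either.
Gcg: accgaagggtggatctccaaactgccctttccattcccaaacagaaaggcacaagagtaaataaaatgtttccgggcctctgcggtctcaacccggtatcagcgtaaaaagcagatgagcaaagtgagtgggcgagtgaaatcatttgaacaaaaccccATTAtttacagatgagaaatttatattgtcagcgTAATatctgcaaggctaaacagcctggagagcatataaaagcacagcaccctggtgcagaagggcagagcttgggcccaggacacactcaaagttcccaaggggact
Slc38a5: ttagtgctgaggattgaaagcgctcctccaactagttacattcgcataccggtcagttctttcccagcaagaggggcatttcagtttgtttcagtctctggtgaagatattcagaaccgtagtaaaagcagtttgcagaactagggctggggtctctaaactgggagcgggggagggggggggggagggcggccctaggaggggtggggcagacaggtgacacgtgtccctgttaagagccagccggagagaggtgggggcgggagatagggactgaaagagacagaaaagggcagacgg
Of 32851 promoters of this length, 58.0% hold at least 1 match, and 34.1% hold at least as many as Gcg. The Slc38a5 gene as positioned above starts at base 8271133, so its RefSeq window lies almost wholly inside that gene. Bases further upstream were not searched, which limits the contrast with Gcg. A match describes the letters only, and no binding was measured.

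A further list of alpha-cell genes was split. Of 12 compared, 4 were at least 2-fold higher and 6 lower, with a median of −0.76. The highest of the 4 was Slc38a5 (3.55), already given above as a marker. Tmem27 (collectrin), a membrane protein gene of islet cells, had 6418 CPM in the Isl1CKO cells, against 1495 CPM in control Gcg-high cells (1.94). Slc7a2, a cationic amino acid transporter gene, had 97.8 CPM in the Isl1CKO cells, against 369 CPM in control cells (−2.08). Dpp10, a potassium channel partner, was at −2.51, Gria3, a glutamate receptor subunit, at −2.20, and Dpp4, a peptidase that cleaves incretins, at −1.82.

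Of 16 receptor genes compared, 6 were at least 2-fold lower and 1 higher, with a median of −0.50. Oxtr, the oxytocin receptor gene, had 0.322 CPM (12 UMIs) in the Isl1CKO cells, against 16.3 CPM (190 UMIs) in control Gcg-high cells (−5.82). Gpr119, a lipid receptor gene, had 4.97 CPM in the Isl1CKO cells, against 45.5 CPM in control cells (−3.36). Avpr1b, the vasopressin receptor gene of alpha cells, was at −3.09, Ffar1, a fatty acid receptor gene, at −2.16, and Casr, the calcium-sensing receptor gene, at −1.79.

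Amino acid transporters did not move together. Of 21 compared, 2 were at least 2-fold higher, Slc38a5 and Slc38a1 (1.14), both glutamine transporters. Slc38a1 had 94 UMIs in the Isl1CKO cells and 12 in control cells, and was at 0.87 when hormone, Ttr, mitochondrial, acinar and erythroid UMIs were left out of CPM without centring. Another 6 were at least 2-fold lower. Slc16a10, an aromatic amino acid transporter gene, had 24.3 CPM in the Isl1CKO cells, against 162 CPM in control cells (−2.90), and Slc7a8, of the LAT2 transporter, was at −1.21. Of 29 genes of mTORC1 and amino acid sensing, 3 were higher and 3 lower, with a median of 0.09. Phgdh, the entry enzyme of serine synthesis, was at 2.03, and Rragb, a Rag GTPase gene, at −2.14.

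Channel genes were more often lower than higher past 2-fold, while exocytosis genes went both ways. Over all genes compared, 8.8% were at least 2-fold higher and 7.25% lower. Of 24 channel genes, 2 were at least 2-fold higher and 6 lower, with a median of −0.43. Abcc8, the sulfonylurea receptor subunit of the ATP-sensitive potassium channel, had 58.1 CPM in Isl1CKO cells, against 210 CPM in control Gcg-high cells (−2.02). Scn9a, a voltage-gated sodium channel gene, was at −2.39 and Gria2, a glutamate receptor subunit, at −2.24. Of 23 exocytosis genes, 3 were higher and 4 lower (median −0.33). Syt9, a synaptotagmin calcium sensor gene, had 0.537 CPM in the Isl1CKO cells, against 11.5 CPM in control cells (−4.58), while Sytl4 (granuphilin), which docks granules, was at 2.13.

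Granule genes were more often higher than lower past 2-fold. Of 18 granin and prohormone-processing genes, 7 were at least 2-fold higher and 0 lower, with a median of 0.61. Chga, the chromogranin A gene, had 30269 CPM in the Isl1CKO cells, against 6977 CPM in control Gcg-high cells (1.95). Per cell the 80% ranges were 17348 to 45429 CPM in the Isl1CKO cells and 3250 to 11987 CPM in control cells. Chgb, the chromogranin B gene, had 10487 CPM in the Isl1CKO cells, against 1514 CPM in control cells (2.63). It was 8609 CPM in male and 13291 CPM in female Isl1CKO cells, against 1470 and 1857 CPM in male and female control cells. Pcsk2, the prohormone convertase that frees glucagon, was near the median gene at 0.11. Pcsk1, the convertase that frees GLP-1 from the same precursor, was at 1.93 but low, with 17.5 CPM in the Isl1CKO cells, against 4.11 CPM in control cells. Scg2, the secretogranin II gene, was at −0.78, Pcsk1n, the proSAAS gene, at −0.70 and Slc30a8, the granule zinc transporter gene, at −0.98.

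Several peptide genes known from the gut, brain or liver were higher. Of 16 peptide genes compared, 6 were at least 2-fold higher and 5 lower, with a median of 0.73. Sct, which encodes the gut hormone secretin, had 617 CPM in the Isl1CKO cells, against 23.3 CPM in control Gcg-high cells (4.57), with a UMI in 84.9% against 9.6% of thinned cells and in 4.9% of insulin-high Isl1CKO cells. Cck, the cholecystokinin gene, had 67.9 CPM in the Isl1CKO cells, against 3.25 CPM in control cells (4.22). Agt, the angiotensinogen gene, had 1194 CPM in the Isl1CKO cells, against 101 CPM in control cells (3.40). Cartpt, the CART neuropeptide gene, had 160 CPM against 12.6 CPM in control cells (3.50), of which 89 of 147 control UMIs came from 1 cell. Gast, the gastrin gene, did not reach 2-fold, at 108 CPM in the Isl1CKO cells against 50.5 CPM in control cells (0.94).

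The peptides of other islet types were low. Ppy, the pancreatic polypeptide gene, had 16.0 CPM in the Isl1CKO cells, against 3851 CPM in control Gcg-high cells (−8.08). Pyy, the peptide YY gene, had 472 CPM in the Isl1CKO cells, against 13708 CPM in control cells (−5.02). Sst, the somatostatin gene, had 33.4 CPM against 782 CPM (−4.71), and 1161 of its 1242 UMIs in the Isl1CKO cells came from 1 cell. Free RNA of these genes differed between the libraries in the same direction. Collagen-positive cells, which should lack them, held Ppy at 11.3 CPM in the Isl1CKO and 646 CPM in the control library, and Pyy at 33.8 CPM and 1336 CPM. All 3 genes stayed at least 2-fold lower under 18 other settings, of which 1 subtracted an estimated free RNA profile. Ppy ran from −9.33 to −6.27, Pyy from −5.63 to −4.59 and Sst from −11.23 to −2.56. The part of free RNA in the 3 ratios was not tested beyond that. Ghrl, the ghrelin gene of epsilon cells, had 1048 CPM in Isl1CKO cells and 1329 CPM in control cells (−0.50), with ratios of −0.12 in male and −1.19 in female cells.

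Markers of beta and delta cells were more often lower than higher past 2-fold, and those of gamma and epsilon cells went both ways. Of 9 beta-cell genes compared, 1 was at least 2-fold higher and 4 lower, with a median of −0.80. Iapp, the amylin gene, had 938 CPM in the Isl1CKO cells, against 2865 CPM in control Gcg-high cells (−1.77), and G6pc2, an islet glucose-6-phosphatase gene, was at −2.88. Of 6 delta-cell genes, 0 were higher and 3 lower, and the delta factor gene Hhex was at −0.06. Of 9 gamma and epsilon genes, 3 were higher and 3 lower. Spp1, the osteopontin gene, had 156 CPM against 29.9 CPM in control cells (2.22), and Arg1, an arginase gene, 5.32 CPM against 82.3 CPM (−4.12).

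Genes of a list of endocrine progenitor and immature cell genes were partly higher. Of 12 compared, 4 were at least 2-fold higher and 2 lower, with a median of 0.61. The highest of the 4 was Cck (4.22), already given above among the peptide genes. Fev, an ETS factor gene of immature endocrine cells, had 200 CPM in the Isl1CKO cells, against 48.9 CPM in control Gcg-high cells (1.87), with a UMI in 55.0% against 19.6% of thinned cells. Neurog3, the switch gene of endocrine progenitors, had 2.79 CPM in the Isl1CKO cells, against 7.44 CPM in control cells (−1.58), while remaining Isl1CKO cells held 74.9 CPM. Against only those control Gcg-high cells with Ttr of at least 5% its ratio was 1.18. Of 6 genes compared from a list of serotonin-making enterochromaffin cells, 2 were at least 2-fold higher and 0 lower, with a median of 0.38. The highest was Tph1, the gene of an enzyme of serotonin synthesis. It had 14.2 CPM in the Isl1CKO cells, against 0.856 CPM in control cells (3.89).

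The genes with the highest ratios beyond these lists were C1ql3, a secreted C1q-like gene, Rprml, Fndc1, Igfbp3, Tspan1, Fxyd5, a regulator of the sodium pump, and Prss23, a protease gene. Their relative log2 ratios ran from 4.28 for Prss23 to 6.31 (95% interval 4.76 to 8.59) for Igfbp3, an insulin-like growth factor binding protein gene with 850 UMIs in the Isl1CKO cells and 3 in control cells. C1ql3 had 65.3 CPM in the Isl1CKO cells, against 0.941 CPM in control Gcg-high cells (5.95). Timp1, a metalloproteinase inhibitor gene, had 186 UMIs in the Isl1CKO cells and 0 in control cells, with a relative log2 ratio of at least 4.12 against a floor of 3 UMIs over the control cells. Among the lowest were Pappa2, a protease of insulin-like growth factor binding proteins, at 7.49 CPM in the Isl1CKO cells against 196 CPM in control cells (−4.88), Klhl13 (−5.12), Slitrk6 (−4.93), Adamts18 (−6.05) and Dapl1 (−4.27).

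Genes of the endoplasmic reticulum folding machinery were higher as a group. Of 24 unfolded protein response genes compared, 12 were at least 2-fold higher and 0 lower, with a median of 1.02 that stayed at 0.75 or more under the 19 other settings. Hspa5 (BiP), the main folding chaperone, had 2312 CPM in the Isl1CKO cells, against 764 CPM in control Gcg-high cells (1.44). It was 2174 and 2518 CPM in male and female Isl1CKO cells, against 758 and 766 CPM in male and female control cells. Sdf2l1, a BiP partner, had 353 CPM against 43.9 CPM in control cells (2.84), Pdia6, a disulfide isomerase gene, 1241 CPM against 269 CPM (2.04), and Trib3, a stress pseudokinase gene, was at 3.01 (95% interval 1.41 to 5.31, with 3 control UMIs). The transcription factor genes Xbp1, Atf4 and Ddit3 (CHOP) were at −0.03, −0.09 and −0.85. Transcript counts do not measure the activity of these factors. Manf, a secreted stress factor gene, was at 1.87, but it shares exon sequence on the same strand with Rbm15b, so its count is uncertain.

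Oxidative phosphorylation genes were shifted slightly upward, with a median of 0.68 over 26 genes, of which 4 were at least 2-fold higher and 0 lower. Ndufa4 was highest at 1.14. Immediate early genes lay lower, 8 of 12 at least 2-fold, with 1 higher and a median of −1.33. That median was 0.21 against only control Gcg-high cells with Ttr of at least 5%. Fos had 2.04 CPM in the Isl1CKO cells, against 21.0 CPM in control Gcg-high cells (−3.52), and Jun 14.8 CPM against 57.7 CPM (−2.12). Jun was at −1.65 in male and −3.49 in female cells. Fos and Jun encode parts of the AP-1 factor. Both libraries were dissociated with the transcription inhibitor actinomycin D.

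Marker genes of cells that a sort could carry over were mostly near 0. The 10 mesenchymal genes summed to 8.46 CPM in the Isl1CKO cells, against 21.7 CPM in control Gcg-high cells. Col1a2, a collagen gene, had 0.161 CPM against 10.4 CPM (−6.17). It held 121 UMIs in 79 control Gcg-high cells, while the collagen genes Col1a1 and Col3a1 held 8 and 13 UMIs in the control set. The 8 endothelial genes summed to 10.8 CPM against 3.00 CPM in control cells, with Cdh5 at 0 in both. The 9 immune genes summed to 62.5 CPM against 60.8 CPM, nearly all from C1qa. C1qa had 57.2 and 62.2 CPM in male and female Isl1CKO cells, and 57.7 and 64.4 CPM in male and female control cells. The 10 acinar genes summed to 70.9 CPM against 123 CPM, and the 7 glial genes to 5.75 CPM against 12.8 CPM, with Sox10 at 0 in both. The 5 erythroid genes summed to 16.5 CPM against 1.71 CPM, and 238 of the 352 UMIs of Hbb-bs, a globin gene, were in 1 Isl1CKO cell.

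The duct list was the exception, at 2604 CPM in the Isl1CKO cells, against 1148 CPM in control Gcg-high cells. Of 8 of its genes compared 4 were at least 2-fold higher, namely Spp1, Epcam, Muc1 and Krt7, and 0 lower. Epcam, an epithelial adhesion gene, had 1279 CPM in the Isl1CKO cells, against 483 CPM in control cells (1.24). The duct factor gene Sox9 had 2.85 CPM in the Isl1CKO cells, against 3.68 CPM in control cells, and Cftr, the chloride channel gene of ducts, had 0 UMIs in both.

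**Figure D3:**
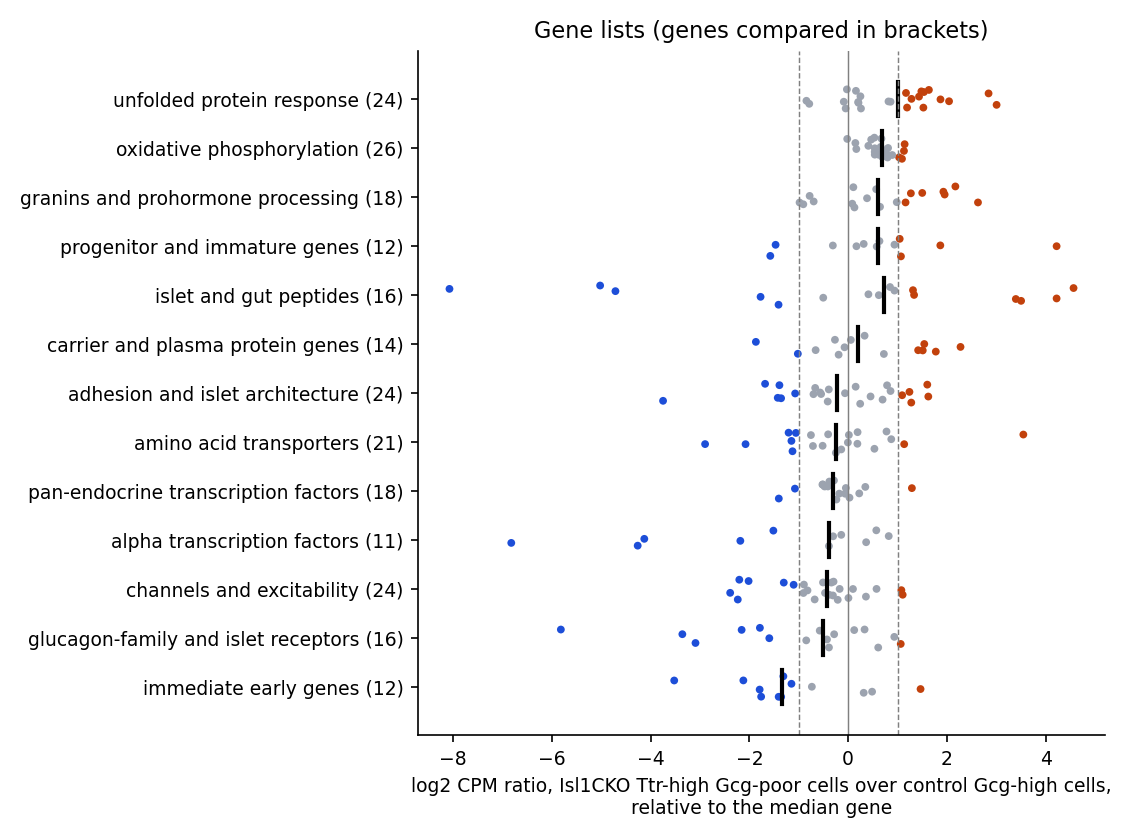
Each point is 1 gene of a list, placed by its log2 CPM ratio of Isl1CKO Ttr-high Gcg-poor cells over control Gcg-high cells relative to the median gene. Black bars mark list medians and dashed lines a 2-fold difference. Among the 13 lists drawn, the unfolded protein response has the highest median at 1.02 and the immediate early genes the lowest at −1.33.

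Gcg was a median of 28.1% of UMIs in control Gcg-high cells, and the scaling moved how many genes count as higher. Of the genes at least 2-fold different, 54.8% were higher relative to the median gene, 67.3% without that centring and 31.6% when hormone, Ttr, mitochondrial, acinar and erythroid UMIs were left out of CPM without centring. The median gene lay 0.16 above equality in the first case and at −0.27 in the last.

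The comparison was repeated with the 94 control Gcg-high cells that themselves held Ttr of at least 5% (median 6.42% Ttr and 31.3% Gcg), a choice made after the data were seen. Of the genes at least 2-fold different, 74.0% were higher in the Isl1CKO cells. Pou3f4 stayed low, at −3.90. Slc38a5 was at 2.10, Cd24a at 7.57, Ttyh1 at 3.66 and Sct at 3.32. The unfolded protein response list had a median of 0.87, with 10 genes at least 2-fold higher. Other differences were no longer 2-fold, among them Vgf, a granule peptide gene, at 0.77 against 2.17 for all control Gcg-high cells, Ndufa4 at 0.60, and Egr1, an immediate early gene, at −0.07 against −1.76.

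Within the Isl1CKO library, these cells differed from the other 1709 cells by the genes below. The rule used this contrast, so the values only describe it. Of 13206 genes compared, 16.6% were at least 2-fold different, 5.87% above the level of the other cells and 10.7% under it, and 35.4% of the different genes were higher. When hormone, Ttr, mitochondrial, acinar and erythroid UMIs were left out of CPM without centring, that share was 17.0%. All 6 markers given for the chosen cells and outside the rule were higher, with a median of 2.42, and 6 of 11 alpha factor genes. Beta-cell genes were lower in 10 of 12 and delta-cell genes in 5 of 7. Among the genes with the highest ratios were C1ql3 (2.98), Mgll, the lipase of monoacylglycerols (2.86), Sct (2.77), Eef1a2, a translation elongation factor gene (2.74), Cav1, the caveolin 1 gene (2.74), and Agt (2.59). The lowest included Msln, the mesothelin gene (−7.57), Galr1, a galanin receptor gene (−6.84), and Slc2a2, the GLUT2 glucose transporter gene, with 1.07 CPM against 130 CPM in the other Isl1CKO cells (−6.85).

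Granule genes divided between the Isl1CKO cell sets. Vgf was 452 CPM in the chosen cells, against 85.9 CPM in the other Isl1CKO cells (2.47). Pcsk1 was 17.5 CPM in the chosen cells, against 158 CPM in the others (−3.10). Chgb was lower than in the others at −1.17, and −0.48 in female cells alone. It stood at 20144 CPM in insulin-high and 35798 CPM in remaining Isl1CKO cells. The high Chgb relative to control alpha cells was therefore not limited to the chosen cells.

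**Figure D4:**
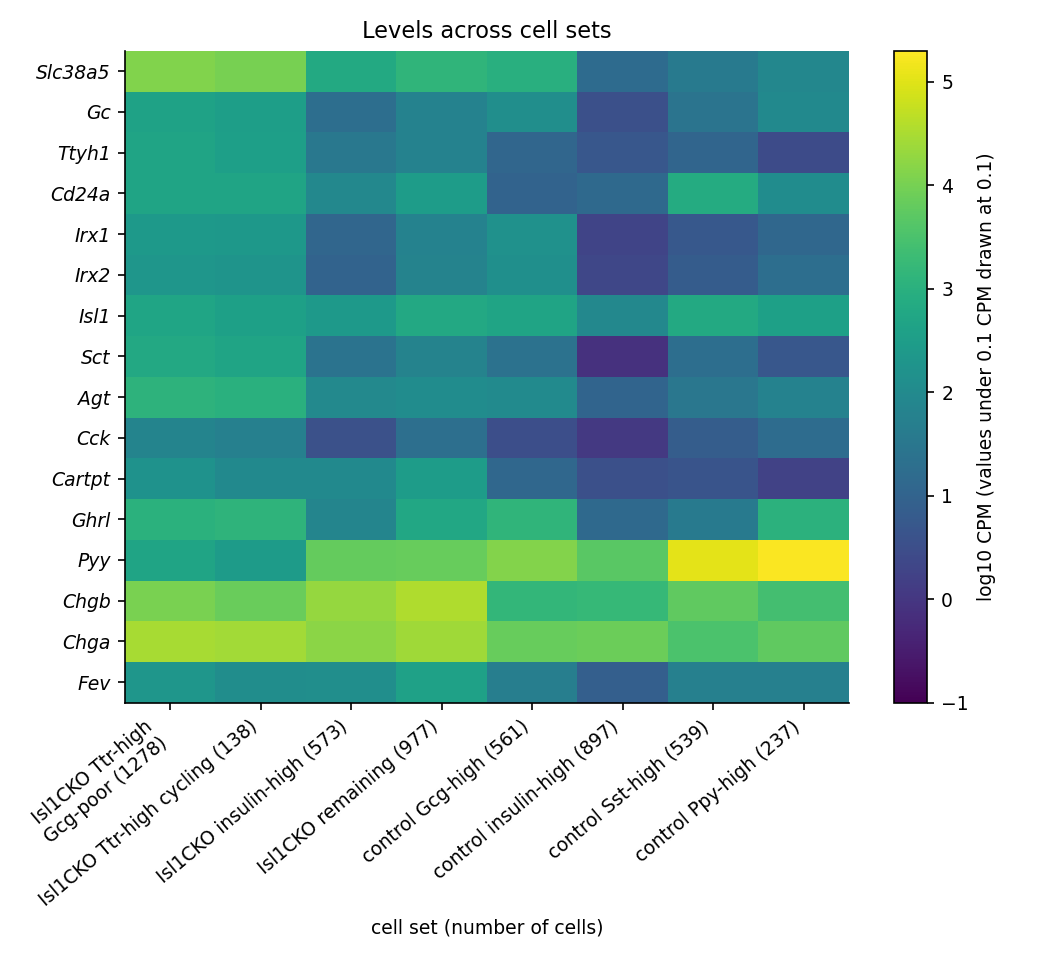
Level of 16 genes (rows) in 8 cell sets (columns, with cell numbers), coloured by log10 CPM. The Isl1CKO Ttr-high Gcg-poor cells share Slc38a5, Irx1, Irx2 and Sct with the cycling Ttr-high cells.

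The Ttr-high cells that failed only the proliferation threshold numbered 138. Of 10618 genes compared, 3.56% were at least 2-fold higher and 7.52% lower in the cells that were not cycling, and 32.1% of the different genes were higher (51.5% in thinned cells, 43.9% without centring). None of the 6 markers given for the chosen cells and outside the rule reached 2-fold, with ratios of −0.19 to 0.26. Of 10 alpha factor genes 0 did. Slc38a5 was 12428 CPM in the cells that were not cycling and 10124 CPM in the cycling cells. Of 18 granin genes 0 were 2-fold different, and of 24 unfolded protein response genes 1 was higher. Of 32 proliferation genes outside the rule, 25 were at least 2-fold lower, with a median of −3.53. The lowest were histone and mitosis genes such as Hist1h2af at −10.24 (95% interval −12.53 to −8.69), Bub1 at −9.71 (−12.00 to −8.15) and Esco2 at −9.60, each with 3 or 4 UMIs in the cells that were not cycling. Mvp, the major vault protein gene, was at 1.63 and Tcp11l2 at 2.14.

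Some of the chosen cells still carried replication and mitosis genes outside the rule. Leiden clustering of the 1278 cells gave 7 subgroups at a resolution of 0.5. Subgroup 1, with 71 cells, was led by Slfn9, Mcm3, Mcm5 and Dtl, and subgroup 7, with 64 cells, by Ccnb2, Cenpa and Cdca3. These replication and mitosis genes led 135 cells, 10.6% of the total. The rule fixed the low level of its 7 genes, of which 847 cells held no UMI.

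The other 5 subgroups were led by different genes. Subgroup 3, with 43 cells, was led by Nupr1, Eif4ebp1, Atf5 and Phgdh, targets of the integrated stress response, with Hspa5 at 5732 CPM and Slc38a5 at 21162 CPM. Subgroup 4, with 143 cells, was led by Eda2r, Psrc1, Phlda3, Fas and Cdkn1a, known p53 targets, with Cdkn1a at 381 CPM, against 75.5 CPM in the remaining chosen cells. Subgroup 2, with 206 cells, was led by Cryab, Nr4a1, Rgs2 and Jun, and 95.6% of it were male cells, with the lowest Slc38a5 at 7270 CPM. Subgroup 5 (315 cells) was led by Vim, Plac8 and Malat1. Subgroup 6 (436 cells) had Sst from 1 cell first, then Cited1 and Ntrk2, with Agt at 1733 CPM. As the leading genes also built the subgroups, they describe them and test nothing. Irx1 stayed between 201 and 287 CPM in the 7 subgroups.

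The chosen cells were also divided by their remaining Gcg. By Gcg share, 332 cells had 0 UMIs, 577 up to 0.1%, 314 from 0.1 to 1% and 55 from 1 to 5%. Peg10 was 25.2, 48.5, 33.9 and 221 CPM over these bins, and Gc 266, 424, 531 and 525 CPM. Cartpt was 111, 182, 149 and 258 CPM, and Tph1 6.65, 16.3, 14.8 and 32.2 CPM. Agt ran the other way, at 1631, 1225, 795 and 646 CPM, as did Ghrl at 1362, 1060, 790 and 617 CPM and Alb, the albumin gene, at 49.7 CPM in the lowest and 14.6 CPM in the highest bin. Isl1 was 529, 501, 506 and 477 CPM and Slc38a5 13188, 12222, 12096 and 12129 CPM. Female cells were 50.9% of the highest bin and 38.0% of the lowest.

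**Figure D5:**
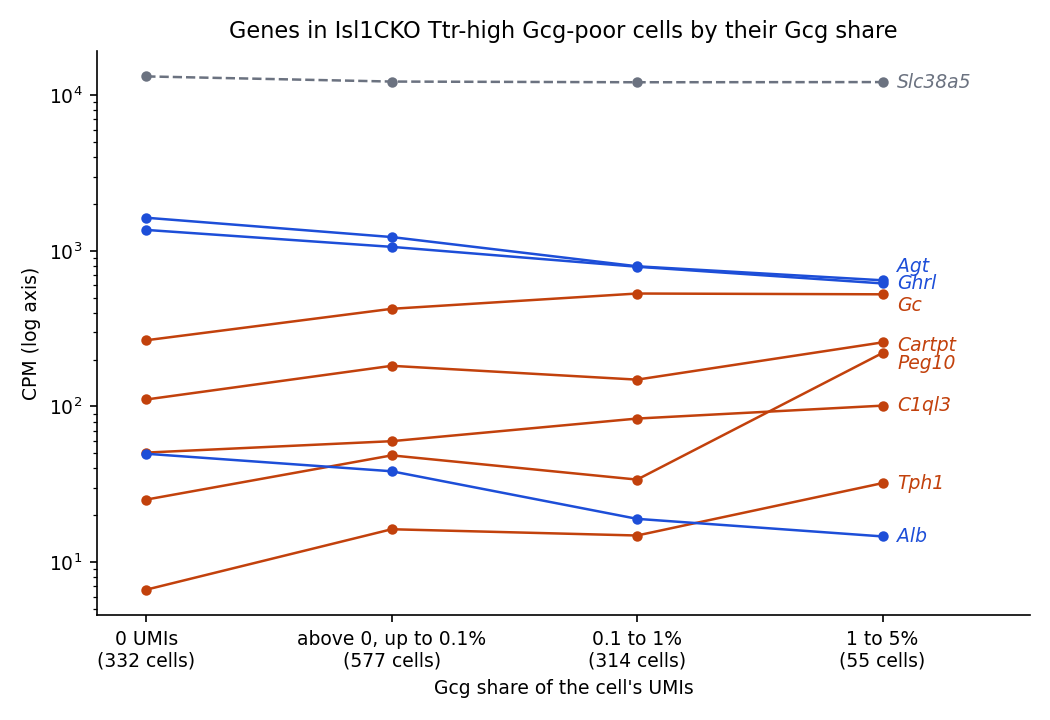
Level of 9 genes in CPM (log axis) over 4 bins of Gcg share in the Isl1CKO Ttr-high Gcg-poor cells. Orange lines mark genes higher in the highest Gcg bin, blue lines genes lower in it and the grey dashed line Slc38a5. Peg10 reaches 221 CPM in the 55 cells with 1 to 5% Gcg, while Slc38a5 stays between 12096 and 13188 CPM.

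Ttr itself, the value that chose the cells, varied with a few genes. With Ttr at 5 to 10% (588 cells), 10 to 15% (524) and 15% or more (166), Agt was 745, 1476 and 1847 CPM and Ghrl 885, 1070 and 1543 CPM. Peg10 was 72.7, 32.3 and 4.93 CPM and Hspa5 2647, 2200 and 1513 CPM. Peg10 was found in 189 of the 1278 cells, so its levels come from a minority.

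Male and female cells, which came from different animals of each pool, were also compared apart. In male cells 773 genes were at least 2-fold higher and 684 lower, and in female cells 769 higher and 582 lower. Of 8231 genes compared in both, 788 were at least 2-fold different in both and 786 of these had the same direction. None of the 2 genes of opposite direction was among those named here. Male and female cells shared the same 2 libraries, so a library difference would enter both, and their agreement is no replicate check.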

How the data were processed

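Single-cell RNA of sorted islet cells was measured in 1 Isl1CKO and 1 control library. The authors deposited whole-number UMI counts per gene and barcode for 46983 gene identifiers, not normalized, per the file values. GRCm38.p6, Seurat 4.3.0.1, STAR 2.7.3a and STARsolo are listed, per the submitters' processing notes, with no role for each. The deposited Isl1CKO matrix held 3020 barcodes and 78068592 UMIs, the control matrix 6794880 barcodes and 89375215 UMIs, so only the Isl1CKO matrix came with empty droplets removed. A control barcode counted as a cell from 6826 UMIs, 1/10 of the 99th percentile of the top 3000. All cells needed 500 genes and at most 15% mitochondrial UMIs, which removed 33 Isl1CKO barcodes.

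UMIs were summed per cell set and set against each other as CPM. A gene was compared with at least 50 UMIs in the higher set, log2 ratios were centred on the median gene, and at least 2-fold was the size named. With 1 library per genotype there are no tests. Intervals (95%) are exact conditional binomial for ratios and exact binomial for shares, cover counting error only, and a floor of 3 UMIs stood for 0. Shares of cells with a UMI come from cells thinned to 5000 UMIs, which left out 3 remaining Isl1CKO cells. No doublet caller was run, and leaving out cells over 2 times their set's median UMIs was an alternative. Subgroups used 1500 variable genes, 20 components, 15 neighbours and Leiden resolution 0.5 (scanpy 1.11.5, Python 3.11.15). The comparison was tested on simulated counts. Named genes were those with interval bounds farthest from 0 (12, 8 and 5 each way for the 3 comparisons), markers, and members of the gene lists. The members and lists were chosen with earlier results of these data known. Some members of the lists count in their totals and are not reported here by name.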

Additional observations from a re-analysis of the deposited data

How the results depend on the processing

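No paired analysis was possible because each genotype is 1 library. The number of chosen cells fell to 690 with Ttr of at least 10%, and Leiden resolutions of 0.3 and 1 gave 4 and 11 subgroups. Against control Gcg-high cells, 1011 genes were higher and 833 lower. With a minimum of 20 UMIs 1360 were lower, with 200 UMIs 542 were higher and 429 lower, and with thinned cells 540 and 527. Leaving hormone, Ttr, mitochondrial, acinar and erythroid UMIs out of CPM without centring (the reduced total) gave 1464 lower, and only control cells with Ttr of at least 5% gave 304 lower. Against the other Isl1CKO cells, 775 were higher and 1413 lower. The counts were 418 higher with the reduced total, 459 and 808 with 200 UMIs, 516 and 899 with thinned cells, and 291 higher with Ttr of at least 10%. Against the cycling cells, 378 were higher and 798 lower. The counts were 571 higher with the reduced total, 670 higher with 20 UMIs, 95 and 397 with 200 UMIs, and 327 lower with thinned cells. A higher minimum or a smaller sum of UMIs leaves fewer genes to compare, and otherwise the cause was not tested. Against control cells with Ttr of at least 5%, Neurog3 turned to 1.18 and the median of the immediate early genes to 0.21. Of 74 genes named here past 2-fold against control Gcg-high cells, 64 stayed past it in every alternative that still compared them. The same held for 16 of 18 against the other Isl1CKO cells and 5 of 5 against the cycling cells. Some genes were not compared in every alternative, and Trib3 was compared in 14 of 19. Many of these genes were named for large ratios, and the alternatives reuse the same 2 libraries, so this is no replicate check. Free RNA was estimated by taking all Ins1 and Ins2 UMIs of a set as free. This gave 0.762% of the UMIs of the chosen cells and 0.628% of those of control Gcg-high cells. The selection had limited the insulin genes in both sets, so these values depend on it. The free RNA profile came from control barcodes with few UMIs, and for Isl1CKO from the sum of all its cells.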
